A study of Mus musculus with 23 samples.

Results

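Chrna2 and Chrna4 encode alpha subunits of the neuronal nicotinic acetylcholine receptors, and their messenger RNA was measured in whole mouse liver. Both genes were taken by name, 2 of 49585 genes in the deposited count table and 2 of the 16 nicotinic subunit genes found there. They had been picked because of how their counts differed between the groups, so their group levels and fold changes are given as a description, without a test. The count table covers livers of 23 C57Bl/6J pups. Dams were fed a diet with 10% fat (control) or 45% fat from the age of 3 weeks, over 7 or 17 weeks, and were mated to males on control diet. Litters were set to 5 pups at birth and moved to foster dams, and the pups were killed at postnatal day 21, except MetS-Ct_97, which is labelled day 22. The groups were named by maternal metabolic syndrome (MetS) before birth and then during nursing. Ct-Ct pups (n = 6) had neither exposure. MetS-Ct pups (n = 6) were exposed before birth, Ct-MetS pups (n = 6) while nursed, and MetS-MetS pups (n = 5) at both times. All pups were cross-fostered, controls included, and the labels do not give the litter, the sex or the weeks of diet for each animal. P-values therefore measure the spread between these animals, and littermates among them would make those p-values too small.

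Nicotinic receptors are ion channels built from several subunits that open when acetylcholine or nicotine binds. The alpha4 subunit pairs mostly with beta2 (Chrnb2) in the brain, and alpha2 can pair with beta2 or beta4 (Chrnb4). Fatty acid synthesis in liver is run by enzymes such as Fasn, fatty acid synthase, and Elovl6, which lengthens palmitate. Fatty acid oxidation is driven by the nuclear receptor PPAR-alpha, whose targets include Vnn1, a pantetheinase, and Acot1, a cytosolic acyl-CoA thioesterase.

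The 250 bases ahead of the start are shown for Chrna4 and for the synthesis genes Fasn and Elovl6, because these genes varied together between livers. They are RefSeq windows on GRCm38.p6, read 5′ to 3′ on the strand of the gene. Windows were found for 4 of the 6 genes wanted (Chrna4, Fasn, Elovl6 and Acot1), and not for Chrna2 and Vnn1. The start used for Chrna4 is that of RefSeq, and the GENCODE M21 gene model reaches farther upstream, so that this window lies within it. Capitals mark GC boxes (GGGCGG) and CCAAT boxes (CCAAT) on either strand.
Chrna4 promoter, chr2:181039178-181039427, minus strand: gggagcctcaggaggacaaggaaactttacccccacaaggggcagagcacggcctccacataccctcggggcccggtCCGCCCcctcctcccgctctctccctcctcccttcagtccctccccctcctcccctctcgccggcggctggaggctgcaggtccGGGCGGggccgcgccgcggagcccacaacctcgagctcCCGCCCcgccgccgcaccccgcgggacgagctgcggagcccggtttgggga
Fasn promoter, chr11:120824548-120824797, minus strand: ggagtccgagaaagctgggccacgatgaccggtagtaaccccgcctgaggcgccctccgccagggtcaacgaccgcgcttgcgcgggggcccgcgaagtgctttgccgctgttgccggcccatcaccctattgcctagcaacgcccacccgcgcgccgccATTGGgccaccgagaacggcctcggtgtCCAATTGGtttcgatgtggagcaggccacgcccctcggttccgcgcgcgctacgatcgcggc
Elovl6 promoter, chr3:129532136-129532385, plus strand: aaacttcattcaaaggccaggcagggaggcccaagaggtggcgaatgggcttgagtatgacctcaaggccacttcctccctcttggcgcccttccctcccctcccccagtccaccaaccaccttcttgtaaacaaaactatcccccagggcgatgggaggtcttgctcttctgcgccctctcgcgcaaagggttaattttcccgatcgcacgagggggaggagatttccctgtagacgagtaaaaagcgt
The Chrna4 window is 74.4% G and C, against a median of 52.4% over all RefSeq windows, and 4.58% of windows are as rich or richer. It holds 3 GC boxes, which begin 173, 89 and 51 bases before the start, on both strands. A GC box occurs in 32.7% of all windows. The Fasn window holds 3 CCAAT boxes, the last pair overlapping by 2 bases, and 33.8% of all windows hold such a box. The other motifs searched were a sterol response element (TCACNCCAC, in 1.05% of windows), an E-box (CACGTG, 6.02%) and the DR1 repeat of PPAR-alpha (0.0335%). These 3 motifs do not occur as written in the 3 windows printed or in that of Acot1. A match is a description of letters and not a measured binding site.

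Library totals ran from 16876460 to 34527932 counts. Levels are given as CPM, counts relative to library sizes scaled by TMM factors, and differences as log2 fold changes with standard errors (SE). edgeR tested the 14466 genes whose mean reached 10 counts, with calls where the Benjamini-Hochberg adjusted p was under 0.05. The hepatocyte list (10 markers, none at 0) summed to 115352 to 150370 CPM in Ct-Ct and 145943 to 164177 CPM in MetS-MetS. Most of this sum was Alb, at 84728 to 110070 CPM in Ct-Ct and 103121 to 123732 CPM in MetS-MetS. edgeR called 0 of the 10 genes in MetS-MetS. The Kupffer and macrophage list (8 markers, none at 0) was at 346 to 448 CPM in Ct-Ct and 443 to 721 CPM in MetS-MetS, and 6 of its 8 genes were called higher there by edgeR, against 3.06% of all tested genes. The erythroid list (8 markers, none at 0) was at 214 to 598 CPM and 312 to 573 CPM in the same groups, and 4 of its 8 genes were called higher in MetS-MetS (median log2 fold change 0.79) and 4 with nursing exposure over both prenatal states (1.02), where 2.27% of all genes were. The part of these cell types in the levels of Chrna2 and Chrna4 was not tested. In whole liver, fewer cells of a type and less RNA per cell cannot be told apart.

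Chrna4 was lower in livers exposed during nursing, and lowest where both exposures met, but it also differed widely between pups of 1 group. In Ct-Ct the lowest, median and highest values were 6.17, 60.3 and 189.6 CPM. They were 0.037, 31.3 and 107 CPM in MetS-Ct. For Ct-MetS they were 2.76, 12.8 and 21.6 CPM. The 5 MetS-MetS livers were at 1.93 (MetS-MetS_39), 6.73 (MetS-MetS_109), 2.54 (MetS-MetS_110), 9.75 (MetS-MetS_154) and 4.10 CPM (MetS-MetS_157). All 11 pups nursed by MetS dams had at most 21.6 CPM, and 3 of 6 Ct-Ct pups were above 98 CPM. Some pups nursed by control dams were also under 21.6 CPM. These were Ct-Ct_33 (18.8), Ct-Ct_130 (6.17), MetS-Ct_53 (21.1), MetS-Ct_97 (0.344) and MetS-Ct_70 (0.037), the last 2 being the lowest of all. The groups overlapped, since Ct-Ct_130, at 6.17 CPM, lay within the MetS-MetS range.

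The group means of Chrna4 stood in the order Ct-Ct (81.3 ± 77.6 CPM, SD, n = 6), MetS-Ct (40.7 ± 42.9), Ct-MetS (13.2 ± 6.69) and MetS-MetS (5.01 ± 3.24, n = 5). The neighbours Ct-Ct and MetS-Ct, and MetS-Ct and Ct-MetS, differed by less than the SD of the more variable group. Ct-MetS and MetS-MetS differed by more than either SD, with overlapping ranges. Relative to Ct-Ct, its log2 fold change was −0.997 ± 0.931 (SE) with prenatal exposure alone. In Ct-MetS it was −2.62 ± 0.986. In MetS-MetS it was −3.995 ± 1.15, a 15.9-fold lower level. Averaged over both prenatal states, nursing exposure went with −2.81 ± 0.743, and averaged over both nursing states, prenatal exposure went with −1.18 ± 0.707. The interaction was −0.37 ± 1.39, an SE far larger than the estimate.

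Chrna2 went the other way. Its lowest, median and highest values were 1.27, 3.07 and 3.42 CPM in Ct-Ct, 2.59, 4.53 and 17.2 CPM in MetS-Ct, and 2.41, 7.14 and 9.11 CPM in Ct-MetS. The MetS-MetS livers were at 21.4 (MetS-MetS_39), 6.73 (MetS-MetS_109), 5.63 (MetS-MetS_110), 11.8 (MetS-MetS_154) and 6.94 CPM (MetS-MetS_157). Every MetS-MetS value lay above every Ct-Ct value, a separation that 2.44% of tested genes showed in the higher direction. MetS-Ct_85, MetS-Ct_149 and Ct-MetS_50 were within the Ct-Ct range.

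The means of Chrna2, from low to high, were those of Ct-Ct (2.72 ± 0.863 CPM, SD, n = 6), Ct-MetS (6.46 ± 2.56), MetS-Ct (6.57 ± 5.44) and MetS-MetS (10.5 ± 6.53, n = 5). Only the step from Ct-Ct to Ct-MetS was larger than the SDs of both neighbours in that order. Against Ct-Ct its log2 fold change was 1.28 ± 0.443 (SE) in MetS-Ct. The value for Ct-MetS was 1.25 ± 0.443, and that for MetS-MetS 1.96 ± 0.461. Without MetS-Ct_53, which held the 17.2 CPM, the value in MetS-Ct was 0.71. Prenatal exposure went with 0.99 ± 0.313 over both nursing states, nursing exposure with 0.96 ± 0.313 over both prenatal states, and the interaction was −0.57 ± 0.626. With 1 library left out the interaction ran from −0.997 (without MetS-MetS_39) to −0.0023 (without MetS-Ct_53).

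**Figure D1:**
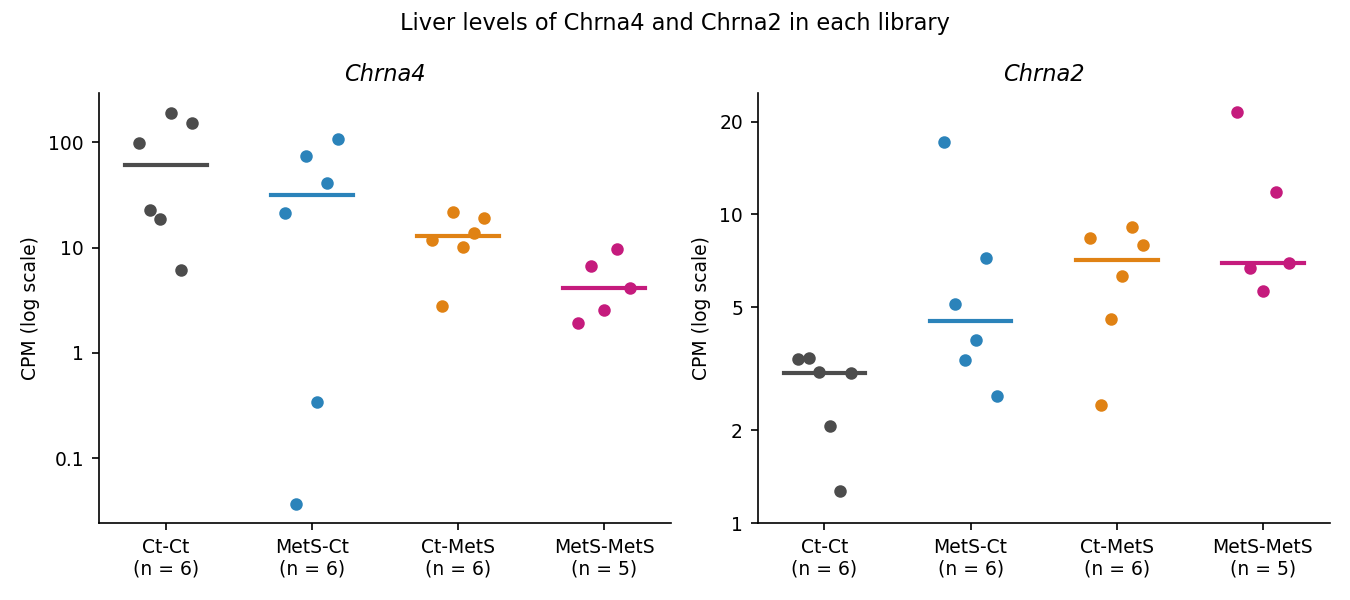
Level of Chrna4 (left) and Chrna2 (right) in each of the 23 libraries, in CPM on a log axis, by group; each point is 1 pup and each bar the group median. The Chrna4 points of both groups nursed by MetS dams lie at or under 21.6 CPM, as do some points of Ct-Ct and MetS-Ct. The Chrna2 points of MetS-MetS all lie above those of Ct-Ct.

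In the comparison of MetS-MetS with Ct-Ct both subunits were among the called genes, 5.78% of those tested, Chrna2 with the 3.06% of tested genes called higher and Chrna4 with the 2.72% called lower. Chrna4 was also among the 1.95% called lower with nursing exposure, where 4.22% were called in all. Since the members were picked on these contrasts, the calls describe the choice and support nothing. By size of fold change Chrna4 ranked 4 from the bottom of 14466 genes in MetS-MetS against Ct-Ct, and Chrna2 ranked 89 from the top. Neither was called in Ct-MetS against Ct-Ct, where 0.954% of genes were, or for prenatal exposure (0.00691%) or the interaction (0%). In MetS-Ct against Ct-Ct edgeR called 0 genes, with 854 at an unadjusted p under 0.05, 14 called by DESeq2 and 0 by limma-voom.

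The spread of Chrna4 within groups was among the widest of any gene. Its SD on the log2 scale after removing group means was 2.48, rank 4 of 14466, against a median of 0.249. The counting error does not cover this range: Ct-Ct_129 had 5317 counts (189.6 CPM, 95% exact Poisson interval 185 to 195), MetS-Ct_97 had 8 (0.344 CPM, 0.148 to 0.677) and MetS-Ct_70 had 1 (0.037 CPM, 0.000936 to 0.206). The intervals cover counting error only. The highest value was 30.7 times the lowest in Ct-Ct, 7.81 times in Ct-MetS and 5.06 times in MetS-MetS. In MetS-Ct it was 2905 times the lowest, which rested on 1 count. Without MetS-Ct_70 and MetS-Ct_97 the log2 fold change of MetS-Ct against Ct-Ct was −0.42 in place of −0.997, and with 1 library left out it ran from −1.57 (without MetS-Ct_149) to −0.55 (without Ct-Ct_129). Chrna2 varied less, with an SD of 0.765, rank 772.

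Chrna4 followed the fatty acid synthesis genes from liver to liver within groups. Fasn ran from 298 to 3850 CPM in Ct-Ct and from 85.2 to 1132 CPM in MetS-Ct, and its 2 lowest MetS-Ct livers, MetS-Ct_97 at 85.2 CPM and MetS-Ct_70 at 138 CPM, were the 2 with almost no Chrna4. In Ct-Ct the 2 livers with the most Fasn, Ct-Ct_129 at 3850 CPM and Ct-Ct_139 at 3028 CPM, were also the 2 with the most Chrna4. After group means were removed, Pearson's r of Chrna4 with Fasn was 0.84 (adjusted permutation p = 0.000112, n = 23) and Spearman's rho 0.84 (adjusted permutation p = 0.00018). The partner genes Fasn, Elovl6, Vnn1 and Acot1 were named with earlier results of these data known. Their p-values, adjusted over 9 pairs only, are therefore not an independent test. Without the 2 livers farthest from the Chrna4 median, MetS-Ct_70 and MetS-Ct_97, r was 0.83.

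Elovl6 followed Chrna4 as well. It ran from 64.5 to 1092 CPM in Ct-Ct and from 7.56 to 251 CPM in MetS-Ct. Its r with Chrna4 was 0.89 (raw permutation p = 1e-05, the smallest that 100000 permutations within groups can give, adjusted p = 9e-05), rho was 0.83 (adjusted permutation p = 0.00018), and r without the same 2 livers was 0.86. Over all groups, with group means removed, Chrna4 changed by 1.38 on the log2 scale per doubling of Elovl6, and by 1.76 per doubling of Fasn. Both slopes include MetS-Ct_70 and MetS-Ct_97. The log2 SD within groups was 2.48 for Chrna4, 1.59 for Elovl6 and 1.19 for Fasn. In MetS-MetS, however, Elovl6 had a larger SD than Chrna4 (1.18 against 0.948). In each group of 6 the correlations were positive: r with Elovl6 was 0.94 in Ct-Ct, 0.96 in MetS-Ct and 0.91 in Ct-MetS. Exact permutation p was 0.00556, 0.0194 and 0.0972. None stayed under 0.05 after adjustment over the 27 tests within groups (lowest adjusted p = 0.0751). By rank the relation was weaker in Ct-MetS, with rho of 0.49, against 0.94 in Ct-Ct and 0.89 in MetS-Ct. With Fasn rho was 0.54 in Ct-MetS and 0.94 in Ct-Ct and MetS-Ct. Ct-MetS_50 had the least Chrna4 (2.76 CPM) and Elovl6 (11.4 CPM) of its group. MetS-MetS was not tested alone. There MetS-MetS_39 was lowest in both genes. MetS-MetS_154 had the most Chrna4 (9.75 CPM) but less Elovl6 (27.3 CPM) than the group median of 28.7 CPM.

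Chrna2 followed the PPAR-alpha targets. Vnn1 ran from 4.37 to 19.8 CPM in Ct-Ct and from 36.0 to 79.1 CPM in MetS-MetS. Acot1 ran from 1.72 to 3.92 CPM in Ct-Ct, and MetS-MetS_39, the liver with the most Chrna2, held 89.6 CPM, against 6.43 to 19.3 CPM in the other MetS-MetS livers. With Vnn1 Chrna2 had r = 0.80 (adjusted permutation p = 0.000112) and rho = 0.80 (adjusted permutation p = 0.00027), and r was 0.80 without MetS-MetS_39 and Ct-Ct_130. With Acot1 r was 0.81 (adjusted permutation p = 0.000112), rho 0.76 (adjusted permutation p = 0.00072) and r without those 2 livers 0.79. Within single groups rho with Vnn1 was 0.26 in Ct-Ct, 0.49 in MetS-Ct and 1.0 in Ct-MetS. With Acot1 rho was 0.77, 0.83 and 0.94 in the same groups. No r within these groups had an adjusted exact permutation p under 0.05 (lowest 0.0751, with Vnn1 in Ct-MetS). Acot1 has close copies in the genome (Acot2, Acot3, Acot4), and the sources used here do not say how reads shared between copies were counted.

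The crossed pairs did not pass the threshold over all 23 livers. Adjusted permutation p was 0.0657 for Chrna4 with Vnn1 (r = 0.39, rho = 0.38), 0.388 for Chrna4 with Acot1 (r = −0.30, rho = −0.32), 0.783 for Chrna2 with Fasn (r = −0.13, rho = −0.14) and 0.835 for Chrna2 with Elovl6 (r = −0.06, rho = −0.16). Chrna2 and Chrna4 themselves had r = 0.11 and rho = 0.13 (adjusted permutation p = 0.815 for r). Chrna4 with Vnn1 passed it when Ct-Ct_33, MetS-Ct_53, MetS-Ct_85 or MetS-Ct_149 was left out (4 of 23 cases, lowest adjusted permutation p = 0.025), with a positive r in each. All 9 pairs formed the family over which p was adjusted. With group means kept, Chrna4 with Acot1 was at −0.50, Chrna2 with Fasn at −0.48 and Chrna2 with Elovl6 at −0.45, all past the threshold, whereas Chrna2 with Chrna4 turned to −0.24 and Chrna4 with Vnn1 to −0.03.

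**Figure D2:**
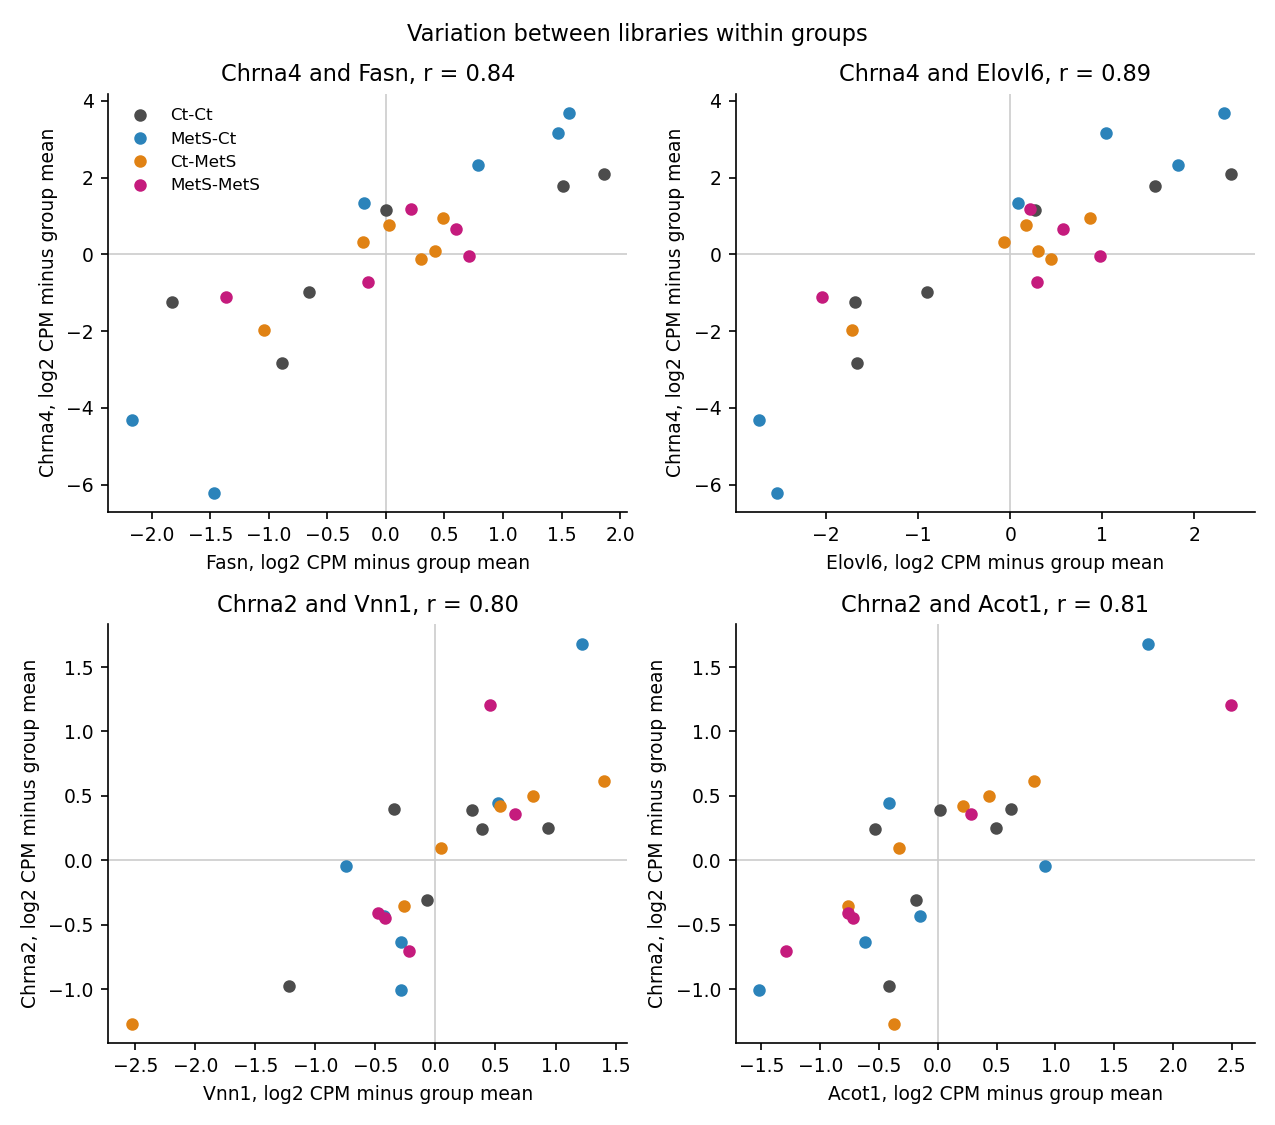
Each liver's deviation from its group mean, in log2 CPM, for Chrna4 against Fasn and Elovl6 (top) and Chrna2 against Vnn1 and Acot1 (bottom); points are the 23 libraries, coloured by group, and r is Pearson's. The points rise from lower left to upper right in all panels, with r from 0.80 to 0.89.

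Fasn and Elovl6 fell and Vnn1 and Acot1 rose in livers exposed at both times, in comparisons that share the Ct-Ct libraries with those of the subunits. In MetS-MetS against Ct-Ct, edgeR gave Fasn −2.59 ± 0.703 (SE, adjusted p = 0.0352) and Elovl6 −3.68 ± 0.944 (adjusted p = 0.0278), both lower. Vnn1 rose by 2.22 ± 0.498 (adjusted p = 0.0175) and Acot1 by 3.35 ± 0.658 (adjusted p = 0.0108). Fasn and Elovl6 were no longer past the threshold by limma-voom, without a filter on low counts, or without Ct-Ct_129 (adjusted p = 0.0943 and 0.0772). Leaving out 1 library ended the call of Fasn in 8 of 23 fits and that of Elovl6 in 6. Without MetS-MetS_39 Acot1 was at 2.09, and it was called in each of the 23 fits that left out 1 library.

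**Figure D3:**
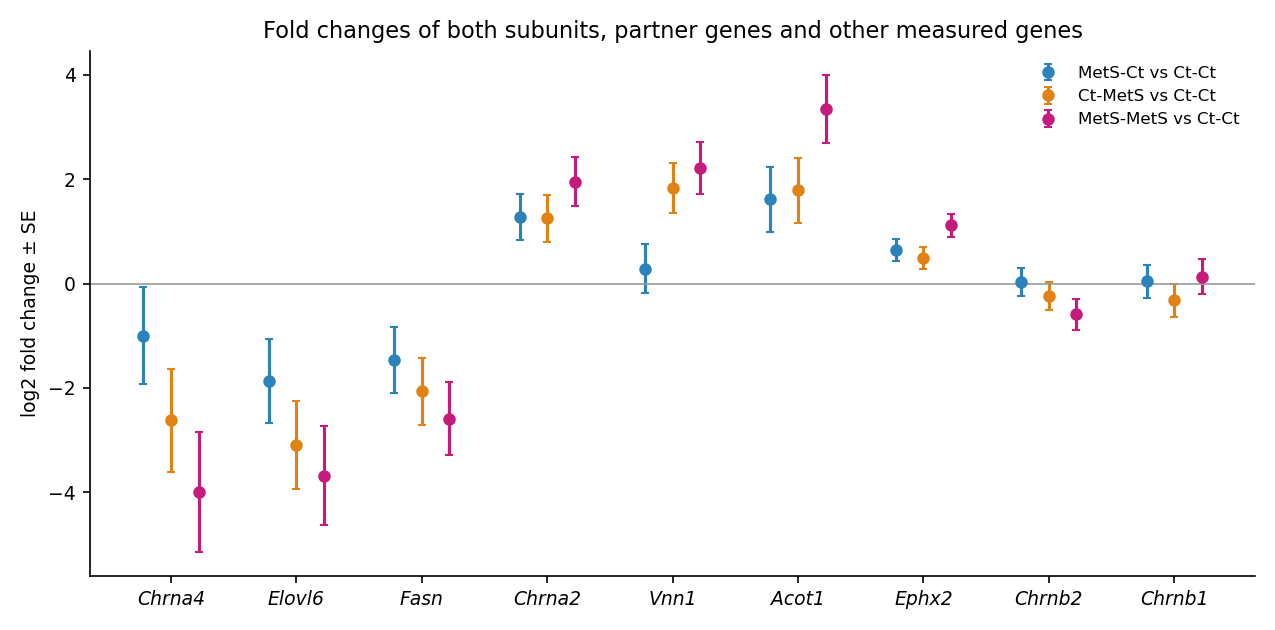
Log2 fold change with its SE (bars) of both subunits, their partner genes, the neighbouring gene Ephx2 and the 2 other measured subunits, for each exposed group against Ct-Ct in the fit over 23 libraries. Chrna4 lies with Elovl6 and Fasn under 0, and Chrna2 with Vnn1, Acot1 and Ephx2 above 0. Chrnb1 and Chrnb2 were not called, though the mean of Chrnb2 was 1.62 CPM in Ct-Ct and 1.05 CPM in MetS-MetS.

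Among all 14465 other tested genes, those most like Chrna4 within groups were Hsd17b12 (r = 0.96), a 3-ketoacyl-CoA reductase of fatty acid elongation, Nsdhl (0.95), an enzyme of cholesterol synthesis, and Acss2 (0.95), which makes acetyl-CoA from acetate. Acacb (0.93), Tm7sf2 (0.92), Scd1 (0.91), Tkt (0.91) and Aldh1a7 (0.91) came next. Scd1, the stearoyl-CoA desaturase, rested in part on MetS-Ct_70 and MetS-Ct_97, since r was 0.69 without them. Among the genes that ran most against Chrna4 were Bzw2 (−0.88), Agt (−0.86), the angiotensin precursor, Cyp2c37 (−0.84) and Ist1 (−0.83). Without the same 2 livers r was also weaker for Cyp2c37 (−0.63), Bzw2 (−0.70), Ist1 (−0.76) and Aldh1a7 (0.78). It changed less for Agt (−0.84), Nsdhl (0.93) and Acss2 (0.96). Counted from the gene most like Chrna4 over all 23 livers, Elovl6 ranked 15 and Fasn 38. Likeness is a description over 23 livers that share their depth and group structure.

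For Chrna2 the most alike genes were Hsdl2 (r = 0.93), a peroxisomal dehydrogenase-like protein, Hsd17b4 (0.89), an enzyme of peroxisomal beta-oxidation, Acad11 (0.89) and Acsl1 (0.89), which activates long-chain fatty acids. Slc25a20 (0.89), the mitochondrial carnitine carrier, Tmem120a (0.87), Elmod3 (0.87) and Fitm2 (0.87) followed. Among the most opposed were Kcnq5 (−0.82), Srebf1 (−0.76), the gene of the lipogenic factor SREBP-1, and Igsf3 (−0.75). Acot1 ranked 28 and Vnn1 30.

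The lists bore the same division, but they include the partner genes and were chosen with results of these data known. Their counts are a description. Of 25 lipogenic genes, 22 had a positive r with Chrna4 and 18 were above 0.5, with a median of 0.74, whereas over all genes 47.7% were positive, 8.66% were above 0.5 and the median was −0.02. Acss2, Acacb, Scd1 and Elovl6 were at the top, and Lpin1 (−0.13) and Dgat2 (−0.08) were among the 3 below 0. Srebf1 was at 0.11. With Chrna2 the median of the same 25 genes was −0.06.

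Of the 33 tested PPAR-alpha targets, of 35 listed, all 33 had a positive r with Chrna2 and 25 were above 0.5, with a median of 0.69. Over all genes 48.9% were positive, 4.15% were above 0.5 and the median was −0.01. Cpt2 (0.85), of mitochondrial fatty acid import, and Decr1 (0.81), of unsaturated fatty acid oxidation, were high, and Ppara itself had the lowest value, 0.19. With Chrna4 the median of these genes was −0.13, and Fabp1, the liver fatty acid binding protein, was highest at 0.75.

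**Figure D4:**
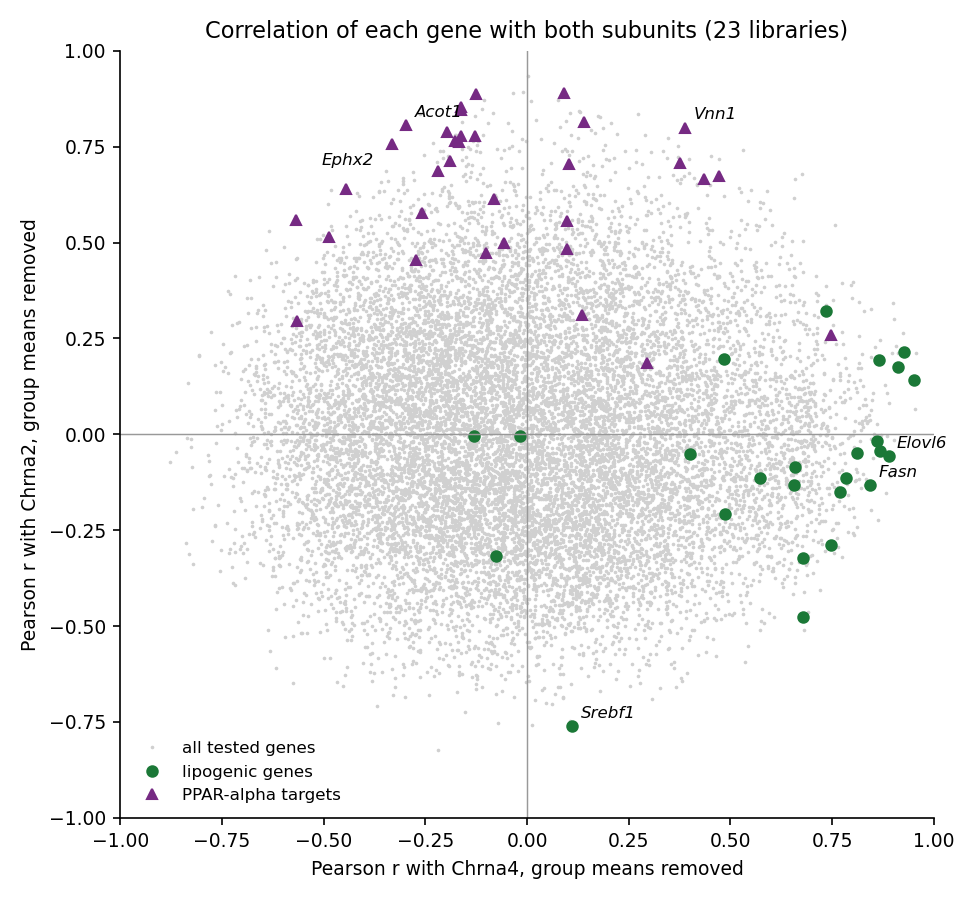
Pearson r of each tested gene with Chrna4 (horizontal) and with Chrna2 (vertical) after group means were removed, over 23 libraries; grey points are all tested genes, circles lipogenic genes and triangles PPAR-alpha targets. The circles gather at the right (median r with Chrna4 0.74) and the triangles at the top (median r with Chrna2 0.69).

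Between groups, 10 of 25 lipogenic genes were called lower in MetS-MetS by edgeR, against 2.72% of all genes, and 0 higher. Their median log2 fold change was −1.19, and that of all genes −0.0038. limma-voom called 4 and DESeq2 12 lower, and without Ct-Ct_129 edgeR called 3. Of the 33 PPAR-alpha targets 23 were called higher, against 3.06%, with a median of 0.997, and 13 without Ct-Ct_129. With nursing exposure over both prenatal states 8 lipogenic genes were called lower and 1, the desaturase Fads2, higher, against 1.95% and 2.27% of all genes. With nursing exposure 13 PPAR-alpha targets were called higher. In Ct-MetS, 3 lipogenic genes were called lower by edgeR, 11 by DESeq2 and 2 by limma-voom, where edgeR called 0.366% of all genes lower. Of the PPAR-alpha targets edgeR called 0 of 33 there, with 20 at an unadjusted p under 0.05, DESeq2 called 6 higher and limma-voom 0. Both lists were chosen with results of these data known.

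The other nicotinic subunits were hardly detected. Of the remaining 14 genes of the family only Chrnb1 (mean 18.9 counts), the beta subunit of the muscle receptor, and Chrnb2 (39.5 counts) reached the minimum to be tested. Chrna6 had no count in any library, and Chrnb4, the other possible partner of alpha2, had 1 count in 1 library. By edgeR 0 of 2 were called in any of the 6 comparisons, as by DESeq2 and limma-voom, and 1 had an unadjusted p under 0.05, Chrnb2 with nursing exposure (−0.43 ± 0.197, adjusted p = 0.211). Chrnb2 ran from 1.31 to 2.27 CPM in Ct-Ct and from 0.433 to 1.44 CPM in MetS-MetS. MetS-MetS_110 stood apart in muscle-type genes, with 22 counts of Chrna1, 4 of Chrnd, 24 of Musk and 228 of Eef1a2. It also held the most of 5 of the 7 fat-tissue markers, with Cfd at 5.44, Ucp1 at 4.02, Adipoq at 2.29, Plin1 at 2.10 and Retn at 0.68 CPM. In the other livers these were highest in Ct-Ct_10, where Cfd was at 1.92 CPM, and Lep was at 0 in all 23. The remaining marker, Adrb3, was the only one abundant enough to be tested, and it did not follow the others. It was at 13.2 CPM in MetS-MetS_110, the median of that group, against 15.3 to 39.8 CPM in Ct-Ct. Without MetS-MetS_110 Chrna4 was at −3.84 and Chrna2 at 2.11 in MetS-MetS against Ct-Ct.

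Genes that make or handle acetylcholine were sparse. Chat, which makes acetylcholine, and its carriers Slc18a3 and Slc5a7 had no count in any library. Of 14 handling genes 7 were tested, and edgeR called 1, the choline transporter-like Slc44a2, higher with nursing exposure by 0.26 ± 0.062 (adjusted p = 0.02), where 2.27% of all genes were called higher. With counts thinned to the smallest library it was at 0.20 and was not called. Bche, the circulating cholinesterase, was at 162 to 231 CPM in Ct-Ct and 209 to 270.1 CPM in MetS-MetS (0.35 ± 0.128, adjusted p = 0.101). Among muscarinic receptors only Chrm1 was tested, and it was not called by any of the 3 tools, nor was its unadjusted edgeR p under 0.05 in any comparison. Of 18 assembly and modulator genes 8 were tested and edgeR called 0 in any comparison, with at most 3 at an unadjusted p under 0.05. DESeq2 called 1, Nptn, in MetS-MetS. The 13 neuron and nerve markers summed to 29.1 to 41.8 CPM in Ct-Ct and 22.1 to 43.5 CPM in MetS-MetS, with Tubb3 and Dbh at 0 and Snap25 at 1 count in all.

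The genes beside each subunit were looked at because reads of genes that lie close may be counted together. In GENCODE M21, Chrna2 has Ephx2, the soluble epoxide hydrolase and a PPAR-alpha target, 10538 bases ahead of it on the opposite strand, and Ptk2b, a tyrosine kinase, 308 bases beyond its end. Ephx2 followed Chrna2 within groups (r = 0.76, rank 55 of 14465) and rose in MetS-MetS by 1.12 ± 0.224 (edgeR, adjusted p = 0.0108). Ptk2b did not follow it (r = 0.08). The neighbour of Chrna4, Col20a1, lies on the opposite strand and ends 16 bases from the end of Chrna4, and had r = −0.49 with Chrna4. No gene overlaps either subunit in that annotation. The sources used here do not say whether reads were assigned by strand.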

How the data were processed

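Polyadenylated liver RNA of 23 pups was sequenced from directional libraries, per the labels. The table the authors deposited holds a whole-number count for each gene and pup. It is named as normalised, but the columns sum to different totals, so the values were read as raw counts. The tools listed, per the submitters' processing notes, are DESeq2, FastQC, HTSeq and STAR. The sources used here give neither versions nor the genome build or strand setting. Symbols matched 49326 of 49585 identifiers.

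The 14466 genes whose mean reached 10 counts were fitted with edgeR 4.0.16 (R 4.3.3; TMM, robust quasi-likelihood test, 1 mean per group, 23 libraries). DESeq2 1.42.0 and limma 3.58.1 (voom) were alternatives, beside other filters, size factors, thinned counts and leaving out each library. The fit and the ranking by likeness were tested on simulated counts. Relations used log2 CPM with a prior count of 2, group means removed, 100000 two-sided permutations within groups and Benjamini-Hochberg adjustment over 9 pairs (SciPy 1.17.1). Promoter windows are RefSeq GRCm38.p6.

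Named genes are both subunits, the 4 partner genes, called or lowest-p genes of the cholinergic lists, the 8 most and 4 least alike genes per subunit, 2 neighbours on each side, and up to 4 genes of the lipogenic and PPAR-alpha lists. Muscle-type genes and marker genes at 0 were named after their values were seen, as were list genes at the extremes of r. A few genes within this rule are not reported here. The members, the 4 partner genes and the lists were chosen with earlier results of these data known.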

Additional observations from a re-analysis of the deposited data

Results flagged for a closer look

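In 192 pairs of a gene and a group (48 genes), 18 had 1 library far from the others by Dixon's ratio. For normally distributed values chance flags about 1 in 20 groups. The ratio was taken on CPM without a log scale, and that rate need not hold for skewed or near-zero values. Chrna2 was at 17.2 CPM in MetS-Ct_53, with the next of its group at 7.23. MetS-MetS_39 was the highest of its group for Acot1 (89.6 CPM, next 19.3), Ephx2 (913 CPM, next 545), Hsdl2 (198 CPM, next 117) and Ist1 (77.0 CPM, next 68.1). Elmod3 was at 27.5 CPM in MetS-Ct_53 (next 15.3), and Hsd17b12 at 103 CPM in Ct-MetS_50, the lowest (next 136).

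MetS-MetS_110 was highest for Eef1a2 (14.1 CPM, next 0), Chrna1 (1.36 CPM, next 0) and Chrnb1 (1.86 CPM, next 0.672). Ct-Ct_130 was highest for Chrnb1 (1.27 CPM) and Col20a1 (6.32 CPM), and Ct-Ct_10 for Eef1a2 (0.115 CPM) and Chrna1 (0.0384 CPM, 1 count). Chrnb2 was at 2.52 CPM in Ct-MetS_50, Nptn at 67.5 CPM in Ct-MetS_65, Agrn at 75.0 CPM in Ct-MetS_169 and Chrne at 0.451 CPM in MetS-Ct_149.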

How the results depend on the processing

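The fold changes of both subunits kept their direction under each filter, scaling, thinning and choice of groups tried. They moved by less than the log2 SD within groups, which was 2.48 for Chrna4 and 0.765 for Chrna2. For Chrna4 that limit is wide, since it exceeds the size of its fold change in MetS-Ct against Ct-Ct. The 4 relations named first (Chrna4 with Fasn and Elovl6, Chrna2 with Vnn1 and Acot1) kept their sign and stayed past the threshold under every alternative run, with r between 0.75 and 0.91 when 1 library was left out. The interaction of Chrna4 ran from −0.82 to 0.20 and turned sign without MetS-Ct_149, and that of Chrna2 from −0.997 to −0.0023. No paired analysis was possible because the groups share no animal numbers.

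With group means kept, r was −0.0277 for Chrna4 with Vnn1 and −0.2417 for Chrna2 with Chrna4 (both turned sign), and −0.5035 for Chrna4 with Acot1, −0.477 for Chrna2 with Fasn and −0.4533 for Chrna2 with Elovl6 (all now past the threshold); these values take in the group contrasts. Leaving out 1 library, Chrna4 with Vnn1 ran from 0.3247 to 0.4533, past the threshold in 4 of 23 cases, and Chrna2 with Elovl6 from −0.1947 to 0.0883, turning positive without MetS-Ct_149 (0.0736) or MetS-MetS_39 (0.0883). Counts of called genes moved most. DESeq2 called 14 genes for MetS-Ct, 425 for Ct-MetS and 1346 for MetS-MetS (each against Ct-Ct), 165 for prenatal exposure, 1038 for nursing exposure and 4 for the interaction, against 0, 138, 836, 1, 611 and 0 by edgeR. Without a filter edgeR called 457 in MetS-MetS and 367 for nursing exposure, and limma-voom called 501 in MetS-MetS. Without MetS-Ct_70 and MetS-Ct_97, chosen after seeing the data, edgeR called 0 for prenatal and 312 for nursing exposure. With 1 library left out, calls ran from 12 (without Ct-MetS_169) to 246 (without Ct-Ct_33) in Ct-MetS, from 219 (without Ct-Ct_129) to 1354 (without Ct-Ct_33) in MetS-MetS, from 0 to 22 for prenatal and from 349 to 923 for nursing exposure. The causes were not tested. At 1 to 8 counts the depth limits the lowest Chrna4 values.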
